A study of Homo sapiens with 9 samples.

Results

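The transcriptome of unedited Huh-7 cells was described from the 3 control libraries of a series of 9. Huh-7 is a human hepatoma line that secretes many proteins of blood plasma. The members were chosen by the label of the control group, and every gene of the files was considered in them. In the labels these cells carry the wild-type genotype, and the other 6 libraries come from knockout clones that were not used here. All cells grew in DMEM with 10% FBS and, at 80 to 90% confluence, were washed and left overnight without serum before RNA was taken. The cells are a tumor line in monoculture, without the other cell types, blood flow or hormones of a liver. The labels call the 3 control libraries biological replicates and name no batch. The libraries held 17865495, 14638727 and 17142701 counts on genes, so that 3 counts corresponded to 0.168 to 0.205 CPM (counts per 1000000 counts of the library).

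Hepatocytes are the main cells of the liver and make most plasma proteins, including albumin, clotting factors, complement and the apolipoproteins that carry lipid. They also detoxify ammonia through the urea cycle, release glucose, oxidise drugs with cytochromes P450 and make bile acids. The fetal liver secretes alpha-fetoprotein (AFP) as its main carrier protein, and the gene is largely silent in adult liver but is often active again in hepatoma. Levels below are FPKM, fragments per kilobase of gene length and per 1000000 fragments, given as the mean of the 3 libraries ± SD. A gene was counted as expressed when this mean was above 1.

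ALB and AFP lie side by side on chromosome 4 with AFM, which codes for afamin, a carrier of vitamin E. The genes are related, and their levels in Huh-7 cells were far apart. ALB (ENSG00000163631, 73397114 to 73421412 on the plus strand) was at 2599, 2452 and 2590 FPKM in libraries 1 to 3. AFP (ENSG00000081051, 73431138 to 73456174, plus strand) was at 1025, 1077 and 1049 FPKM. AFM (ENSG00000079557, 73481683 to 73504001, plus strand) was at 0.451, 0.263 and 0.342 FPKM, which rests on 19, 9 and 14 counts. The 3 libraries gave the same order, with no overlap between the genes. GC, the vitamin D carrier and a further relative on chromosome 4, was at 70.2 ± 6.25 FPKM (SD, n = 3). The 250 bases before the RefSeq start of each of the 3 neighbors (GRCh38.p14, plus strand) are shown because the genes share a family and a neighborhood but not a level. Capitals mark TATAAA, a common form of the TATA box, which was searched on both strands. Other forms of the box were not searched.
ALB, chr4:73404037-73404286: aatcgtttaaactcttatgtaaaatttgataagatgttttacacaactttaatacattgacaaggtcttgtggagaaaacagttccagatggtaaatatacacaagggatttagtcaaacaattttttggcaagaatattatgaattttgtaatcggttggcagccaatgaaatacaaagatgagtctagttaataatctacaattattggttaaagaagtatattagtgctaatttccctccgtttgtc
AFP, chr4:73435971-73436220: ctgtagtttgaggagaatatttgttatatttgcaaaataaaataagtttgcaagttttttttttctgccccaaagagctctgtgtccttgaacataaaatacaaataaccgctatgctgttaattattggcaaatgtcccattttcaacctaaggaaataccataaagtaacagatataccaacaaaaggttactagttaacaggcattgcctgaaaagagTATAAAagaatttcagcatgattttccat
AFM, chr4:73481495-73481744: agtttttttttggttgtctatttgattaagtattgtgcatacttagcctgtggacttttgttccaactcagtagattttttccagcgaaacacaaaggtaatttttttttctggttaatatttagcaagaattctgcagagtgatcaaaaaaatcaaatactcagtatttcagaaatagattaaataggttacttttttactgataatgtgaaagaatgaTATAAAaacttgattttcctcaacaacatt
TATAAA was found 29 bases before the start of AFP and 30 before that of AFM, and these exact letters were not in the window of ALB. The ALB window holds the similar letters tatatta near its end, and whether they act as a TATA box was not tested. Of 35116 promoter windows of this length, 10.7% held TATAAA on either strand. The AFM window held it as the AFP window did. The files start ALB and AFP upstream of RefSeq, so both windows lie within the genes as the files bound them, and the end of the AFM window lies past the start of AFM in the files.

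Of 58735 genes in the files, 12692 were expressed and 30832 had 0 counts in all 3 libraries. Among 19951 protein-coding genes 10763 were expressed, which is 53.9% and the background against which the lists below are read. The numbers fell steeply with level, as 4444 genes were above an FPKM of 10, 307 above 100 and 22 above 1000. The median over the expressed genes was 6.16 FPKM. The 425 most abundant genes held 50% of the summed FPKM, and without the mitochondrial genome 853 genes held 50% of the rest.

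Transcripts of the mitochondrial genome led the ranking, with 14 of the 20 most abundant genes. They code for subunits of the respiratory chain and for the ribosomal and transfer RNAs of mitochondria. MT-CO1, a subunit of cytochrome c oxidase, was highest at 9294, 9930 and 10539 FPKM. MT-RNR2, the large mitochondrial ribosomal RNA, followed at 7444 ± 501 FPKM. MT-CO2, MT-CO3, MT-ATP6 and MT-ND4 lay between 4072 and 6710 FPKM. The 37 mitochondrial genes held 19.7% ± 1.23 of the summed FPKM (SD, n = 3) but 5.78% ± 0.344 of the counts, which are not divided by length. Their share of FPKM was 18.6%, 19.4% and 21.0% in libraries 1 to 3. The remaining mitochondrial genes of the top 20 were MT-ND4L, MT-ND1, MT-ND6, MT-ND3, MT-CYB, MT-RNR1, MT-ND2 and MT-TN, between 1270 and 2194 FPKM.

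The most abundant nuclear gene was FTL, the light chain of the iron store ferritin, at 3131, 2928 and 2811 FPKM. ALB was second, and CKB, the brain form of creatine kinase, came next at 1638 ± 119 FPKM. EEF1A1, a factor of protein synthesis, was at 1183 ± 32.3 FPKM and FTH1, the heavy chain of ferritin, at 1157 ± 63.2 FPKM. AFP was the seventh nuclear gene, and the retinal dehydrogenase gene ALDH1A1 came after it at 910 ± 14.7 FPKM. RPS28P7, a processed pseudogene on chromosome 11, was listed at 1383 ± 63.2 FPKM while RPS28, the ribosomal protein gene it was copied from, was at 78.6 FPKM. The copies are nearly identical, so the level of each is uncertain. Their lengths in the files are 210 and 2119 bases, so the same reads give a far higher FPKM on the pseudogene than on the gene, and a sum of both FPKM is not defined. Together they held 9631, 6741 and 7603 counts. The split is as uncertain for RPL9P9 at 432 FPKM beside RPL9 at 35.3 FPKM. By counts the order was different. MT-CO1 still came first and ALB came 3rd by counts, while C3, FN1 (fibronectin) and APOB stood 6th, 7th and 13th. C3 was at 631 FPKM, FN1 at 287 FPKM and APOB at 224 FPKM.

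**Figure D1:**
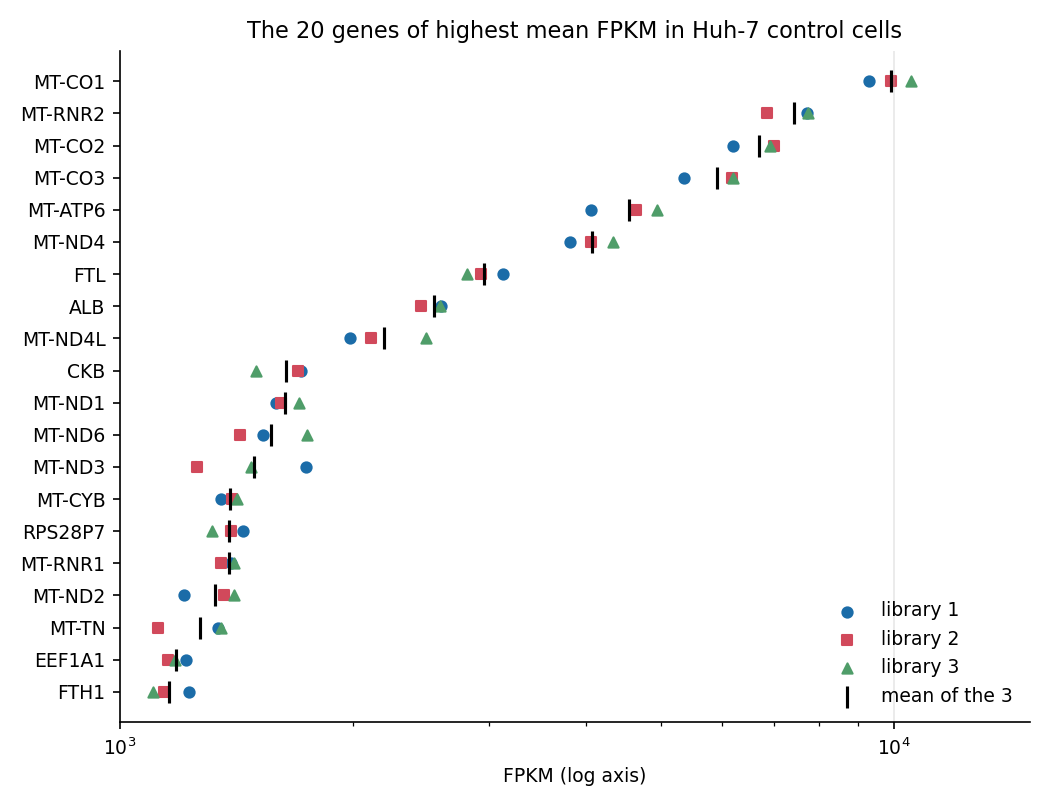
FPKM of the 20 genes with the highest mean, on a log axis, in each of the 3 control libraries (symbols) with the mean as a vertical bar. Genes of the mitochondrial genome fill 14 of the 20 places, FTL and ALB are the highest nuclear genes, and the 3 libraries lie close together for each gene.

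Secreted plasma proteins were described with 138 genes in 7 groups by role. Of these, 99 were expressed and 22 exceeded 100 FPKM, and their median was 11.01 FPKM beside 1.58 FPKM over all protein-coding genes. Together they held 4.47% ± 0.149 of the summed FPKM (SD, n = 3), with 4.61%, 4.31% and 4.50% in libraries 1 to 3. ALB alone held 0.936% ± 0.0314. Among the 20 most abundant nuclear genes 6 were of this group, namely ALB, AFP, RBP4, AMBP, APOA1 and C3.

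Of 22 carriers and transport proteins 18 were expressed. After ALB and AFP came RBP4, the retinol carrier, at 775 ± 66.7 FPKM and AMBP, the precursor of alpha-1-microglobulin and bikunin, at 657 ± 54.6 FPKM. AHSG (fetuin-A) was at 181 ± 7.64 FPKM. TF, which codes for transferrin, was at 90.3 ± 1.91 FPKM. Its gene length in the files is 26199 bases, and by counts it stood 18th of all genes. Haptoglobin (HP) and hemopexin (HPX), which take up free hemoglobin and heme, were at 6.92 ± 0.300 and 6.59 ± 1.05 FPKM. The lowest were PON1 at 0.171 FPKM and HRG, the histidine-rich glycoprotein, at 0.0607 FPKM.

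Of 23 genes for apolipoproteins, lipases and their regulators 18 were expressed. APOA1, the main protein of HDL, was at 682, 642 and 586 FPKM. APOE, a ligand of lipoprotein receptors, was at 679, 555 and 545 FPKM. CLU (clusterin) was at 312 ± 24.4 FPKM and APOA2 at 277 ± 6.66 FPKM, while APOC3 had a mean of 268 FPKM. APOB (ENSG00000084674, chromosome 2, 21001429 to 21044073, minus strand), the structural protein of VLDL and LDL and a target of the knockouts in this series, was at 179, 235 and 258 FPKM. Its level was lowest in library 1 and its SD was 40.6 FPKM. MTTP (ENSG00000138823, chromosome 4, 99563761 to 99623999, plus strand), which codes for the protein that loads lipid onto apoB, was at 117, 111 and 121 FPKM, without a library apart. APOC2, the activator of lipoprotein lipase, was at 1.22 ± 0.252 FPKM, and APOC4 had 0 counts in all 3 libraries. Of the exonic bases of these neighbors, 53.5% and 82.9% also lie in exons of another gene, and the part of this overlap in the low values was not tested. CETP and APOF were at 0.0450 and 0.0337 FPKM.

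Of 26 coagulation and fibrinolysis genes 21 were expressed. Prothrombin (F2) was highest at 234, 223 and 214 FPKM. SERPINF2, which inhibits plasmin, was at 147 ± 17.0 FPKM and SERPINC1, antithrombin, at 86.8 ± 3.87 FPKM. The fibrinogen chains FGB, FGA and FGG were at 77.5, 62.1 and 42.6 FPKM. Factor IX (F9) had 0 counts in all 3 libraries, with none of its exonic bases shared with another gene. F11, F13B, KLKB1 and F8 lay between 0.0687 and 0.961 FPKM, and plasminogen (PLG) at 1.04 ± 0.0800 FPKM was just above the threshold. Vitamin K-dependent factors were spread over the range, from F2 through F10 at 44.7 ± 3.27 and F7 at 12.7 ± 0.872 FPKM to F9 at 0.

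Of 30 complement genes 19 were expressed. C3, the central component, was at 632, 603 and 658 FPKM and vitronectin (VTN) at 394 ± 25.8 FPKM. C5, which starts the membrane pore, was at 58.8 ± 4.70 FPKM. The components that build the membrane pore were unequal. C8A, C8B and C8G were at 18.1, 18.7 and 6.23 FPKM, whereas C6, C7 and C9 were at 0.303, 0.415 and 0.0148 FPKM. The C9 value rests on 2 counts in 1 library. CFHR3 had 0 counts.

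Of 11 protease inhibitors 6 were expressed, led by SERPINA1 (alpha-1-antitrypsin) at 445, 430 and 442 FPKM. ITIH2, a heavy chain that is joined to bikunin, was at 93.5 ± 15.3 FPKM, while ITIH1, ITIH3 and ITIH4 were at 0.504, 0.313 and 0.0174 FPKM. SERPINA3, an inhibitor that rises in inflammation, was at 0.983 ± 0.123 FPKM. Of 8 acute phase genes 6 were expressed, with LBP and SAA1 highest, and CRP was at 0.102 ± 0.0498 FPKM and APCS at 0 counts. Of 18 hormones and growth factors 11 were expressed. AGT (angiotensinogen) was at 309 ± 5.82 FPKM, GDF15 at 116 ± 7.43 FPKM and EPO (erythropoietin) at 13.37 ± 1.197 FPKM. FGF19, a hormone that the adult gut rather than the liver secretes, was at 18.6 ± 0.984 FPKM. HGF and GDF2, factors of stromal liver cells, had 0 counts.

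**Figure D2:**
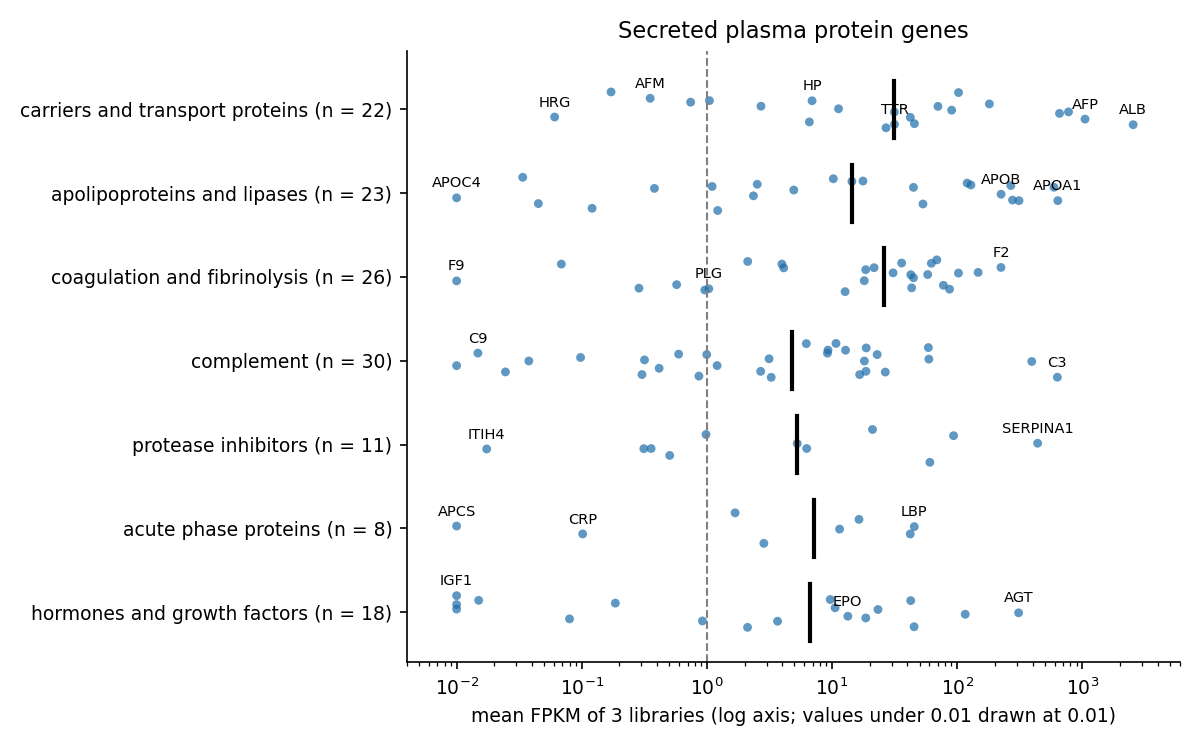
Mean FPKM over the 3 control libraries of each secreted plasma protein gene, on a log axis, by role. Each point is a gene, the black bar is the median of the group and the dashed line marks an FPKM of 1. Every group spans from below 1 to above 10, and ALB is the highest of all.

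Functions of the adult hepatocyte inside the cell were described with 114 genes, of which 68 were expressed and 46 were at or under an FPKM of 1. As a set their expressed share was not below the 53.9% of all protein-coding genes, so low levels are described for single genes. Their median was 2.96 FPKM, below the 11.01 FPKM of the secreted proteins and above the 1.58 FPKM of all protein-coding genes. A single gene, ALDH1A1, exceeded 100 FPKM, against 22 of the 138 secreted proteins.

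The urea cycle was present except for its first enzyme. Of 8 genes 7 were expressed, with ASS1, which joins citrulline and aspartate, at 59.8 ± 5.34 FPKM and ASL, which splits the product, at 44.6 ± 2.47 FPKM. ARG1, arginase, was at 11.8, 13.8 and 13.2 FPKM and OTC, which makes citrulline, at 3.602, 3.638 and 4.002 FPKM. CPS1 (ENSG00000021826, chromosome 2, 210477682 to 210679107, plus strand), which fixes ammonia, was at 0.0889, 0.0547 and 0.127 FPKM on 18, 9 and 25 counts. Its activator gene NAGS was at 10.1 ± 1.09 FPKM. CPS1 was below OTC in every library.

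Of 10 genes of gluconeogenesis and glycogen 8 were expressed. PC, pyruvate carboxylase, was at 71.1 ± 2.81 FPKM, and PCK1, the cytosolic phosphoenolpyruvate carboxykinase, at 12.3, 9.42 and 10.9 FPKM. The step after the trioses was low, since FBP1, fructose bisphosphatase, was at 0.459, 0.377 and 0.694 FPKM. G6PC, which releases free glucose, was at 1.36, 1.09 and 1.55 FPKM. Of 8 genes by which hepatocytes take in and trap sugar 4 were expressed. KHK, ketohexokinase, was at 8.57 ± 1.33 FPKM. SLC2A2, the liver glucose transporter GLUT2, was at 0.0772 ± 0.0194 FPKM, on no more than 6 counts in any library.

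Among 16 cytochromes P450 of drug metabolism 6 were expressed, and their median of 0.663 FPKM was the lowest of the 9 function groups. CYP1A1, which the aryl hydrocarbon receptor induces, was highest at 10.8 ± 0.997 FPKM. CYP2J2, CYP2B6, CYP4F2, CYP2C8 and CYP2A6 lay between 1.03 and 6.12 FPKM. CYP3A4, the main drug-metabolizing P450 of adult liver, had 0, 3 and 0 counts, and CYP2E1 had 2, 0 and 2 counts. CYP4A11 had 0 counts. Of 18 conjugating enzymes 11 were expressed, with GSTO1 at 74.8 ± 3.83 FPKM and SULT2A1, a steroid sulfotransferase, at 5.90 ± 0.232 FPKM. UGT1A1, which conjugates bilirubin, was at 0.233 ± 0.0845 FPKM, and the other UGT1A genes listed lay between 0.0502 and 0.0801 FPKM. The UGT1A genes share their last exons, so their separate values are uncertain.

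Of 17 bile acid genes 9 were expressed. CYP27A1, which starts the acidic pathway, was at 25.9 ± 0.914 FPKM and ABCC2, a canalicular exporter, at 21.8 ± 0.782 FPKM. CYP7A1, the rate-limiting enzyme of the classic pathway, and CYP7B1 had 0 counts in all 3 libraries, and none of their exonic bases are shared. CYP8B1 was at 0.0979 ± 0.0334 FPKM. The transporters SLC10A1, which brings bile acids into the cell and is the entry receptor of hepatitis B virus, and ABCB11, which exports them, were at 0.0352 and 0.0220 FPKM, on no more than 4 counts in any library. NR1H4 (FXR), the bile acid receptor, was at 57.9 ± 4.78 FPKM and its target NR0B2 (SHP) at 20.2 ± 2.28 FPKM.

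Of 10 genes of alcohol and aldehyde oxidation 6 were expressed. ADH1A had 0 counts and ADH1B, ADH1C and ADH4 were at or below 0.223 FPKM, whereas ADH5, the form that all tissues use, was at 48.9 ± 1.12 FPKM. Of 17 genes of amino acid breakdown 9 were expressed, with HGD, which acts in tyrosine breakdown, at 40.2 ± 0.476 FPKM. TAT and TDO2, which start the breakdown of tyrosine and tryptophan, were at 0.623 and 0.308 FPKM. Of 10 genes of fatty acid oxidation and ketogenesis 8 were expressed, with CPT1A, which admits fatty acids to mitochondria, at 38.9 ± 5.50 FPKM. BDH1, which makes beta-hydroxybutyrate, was at 0.120 ± 0.0289 FPKM.

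**Figure D3:**
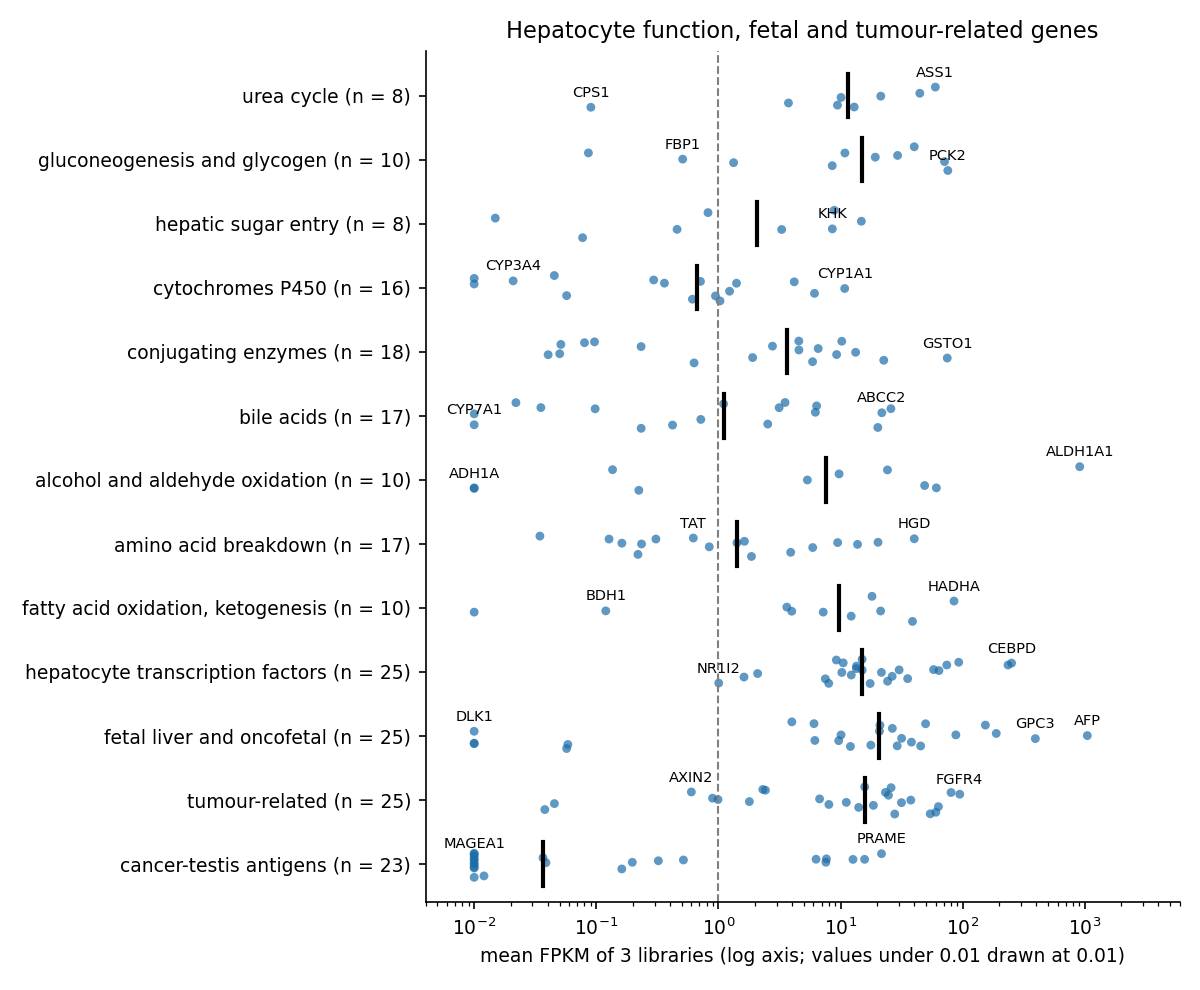
Mean FPKM over the 3 control libraries of genes of hepatocyte function, hepatocyte transcription factors, and fetal, tumor-related and cancer-testis genes, on a log axis. Each point is a gene, the black bar is the median of the list and the dashed line marks an FPKM of 1. All 25 transcription factors lie above the line, while each function group has members below it.

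The transcription factors that hold hepatocyte identity were present without exception. All 25 of the list were expressed, with a median of 15.1 FPKM. CEBPD, CEBPB and CEBPA, which drive many plasma protein genes, were at 252 ± 27.3, 235 ± 22.7 and 92.9 ± 8.46 FPKM. FOXA2, a factor that opens liver chromatin, was at 74.2 ± 4.65 FPKM and HNF4A at 64.5, 63.3 and 64.3 FPKM. Among the lowest were the drug receptors NR1I3 (CAR) at 2.10 ± 0.124 FPKM and NR1I2 (PXR) at 1.05, 0.828 and 1.14 FPKM. NR1I2 was above 1 in the mean and below it in library 2.

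Markers were used to check the label. All 13 hepatocyte markers were expressed, with a median of 99.5 FPKM. Of 10 stromal, 11 lymphocyte and 10 erythroid markers none was expressed, and their summed FPKM was 1.73 to 2.04, 1.17 to 1.94 and 0.252 to 0.323 over the libraries. Of 10 endothelial markers 1 was expressed, PECAM1 at 10.2, 9.23 and 10.3 FPKM, while KDR, TEK, CLEC4G and EMCN had 0 counts. Of 12 macrophage markers 2 were expressed, LYZ (lysozyme) at 157, 148 and 160 FPKM and CD14 at 3.67, 2.67 and 3.03 FPKM. PTPRC, CD163, CD5L, VSIG4, C1QA and C1QB had 0 counts. CD68 also had 0 counts, but 85.6% of its exonic bases lie in exons of another gene. Of 10 cholangiocyte markers 6 were expressed, among them SOX9 at 88.0 ± 7.53 FPKM and EPCAM at 31.6 ± 3.40 FPKM, while KRT7 had 0 counts.

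Fetal and tumor genes were described with 73 genes, of which 46 were expressed, with a median of 7.67 FPKM. Of 25 fetal liver and oncofetal genes 20 were expressed. After AFP came GPC3, a cell surface proteoglycan used as a hepatoma marker, at 415, 372 and 395 FPKM. MDK, a growth factor, was at 189 ± 19.7 FPKM and CD24 at 154 ± 0.995 FPKM. The RNA-binding proteins IGF2BP2, IGF2BP1 and IGF2BP3 were at 38.1, 29.1 and 6.17 FPKM, and LIN28B, which blocks maturation of the let-7 microRNAs, was at 9.20, 11.7 and 9.38 FPKM. The fetal pattern was not complete. DLK1 and LIN28A had 0 counts, H19 was at 0.0585 ± 0.0142 FPKM on 4, 2 and 3 counts, and the fetal P450 gene CYP3A7 was at 0.0572 FPKM. PEG3 also had 0 counts, with 12.9% of its exonic bases shared. IGF2, an imprinted neighbor of H19, was at 7.20, 11.98 and 9.82 FPKM, with 44.4% of its exonic bases shared.

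Of 25 tumor-related genes 20 were expressed. FGFR4, the receptor of FGF19, was at 94.7 ± 7.53 FPKM beside the 18.6 FPKM of its ligand. NQO1, a target of NRF2, was at 80.4 ± 4.70 FPKM and CTNNB1, beta-catenin, at 60.4 ± 3.06 FPKM. Targets of beta-catenin were uneven. CCND1 and GLUL were at 54.3 ± 1.41 and 37.6 ± 2.35 FPKM, and NOTUM and SP5 at 2.31 and 1.79 FPKM. AXIN2, LGR5, RHBG and NKD1 were at 0.600, 0.992, 0.895 and 0.0379 FPKM. TERT, the catalytic part of telomerase, was at 2.43 ± 0.514 FPKM and MYC at 25.95 ± 3.41 FPKM. Of 23 cancer-testis genes, which are normally active in germ cells, 6 were expressed and 9 had 0 counts. PRAME was highest at 21.0, 22.2 and 21.8 FPKM, and MAGEB2, MAGEA3, MAGEA6, MAGEA12 and MAGEC2 were between 6.31 and 15.8 FPKM. Members of the MAGEA family are similar in sequence, so the split among them is uncertain. MAGEA1, CTAG1B and SSX2 were among those at 0 counts. CTAG1B and SSX2 each have a near-identical copy, so their 0 counts may rest on how multiply mapped reads were handled, which was not tested.

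Several liver genes have a close relative that other tissues or the fetal liver use, and 13 such pairs were compared within each library. The adult form was lower in every library in 9 pairs and higher in every library in 3. The ratio of ALB to AFP was 1.28 ± 0.08 on the log2 scale (SD, n = 3), with 1.34, 1.19 and 1.30 in libraries 1 to 3. ARG1 exceeded ARG2, the kidney form of arginase, by 1.89 ± 0.18 and PYGL exceeded PYGB, the brain glycogen phosphorylase, by 0.89 ± 0.07 on that scale. At the entry of glucose, SLC2A1 (GLUT1) was at 11.14, 13.89 and 10.96 FPKM and SLC2A2 under 0.1 FPKM, a log2 ratio of the liver form of -7.30 ± 0.56. PKM, the pyruvate kinase of most tissues, was at 95.9, 122 and 97.4 FPKM and the liver form PKLR at 9.89, 7.73 and 9.04 FPKM, a log2 ratio of -3.56 ± 0.37. PCK1 was below its mitochondrial counterpart PCK2, at a log2 ratio of -2.80 ± 0.06. MAT1A, the methionine adenosyltransferase of adult liver, was below MAT2A, at -1.97 ± 0.26. 
GYS2, the liver form of glycogen synthase, was at 0.0862 FPKM beside GYS1 at 17.7 FPKM. IGF1 had 1, 0 and 0 counts beside IGF2. Of the exonic bases of GYS2 and IGF1, 85.3% and 82.5% lie in exons of another gene, so their low values are uncertain. CYP3A4 and CYP3A7 were both near 0, with at most 9 counts, and no order of this pair can be read.

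**Figure D4:**
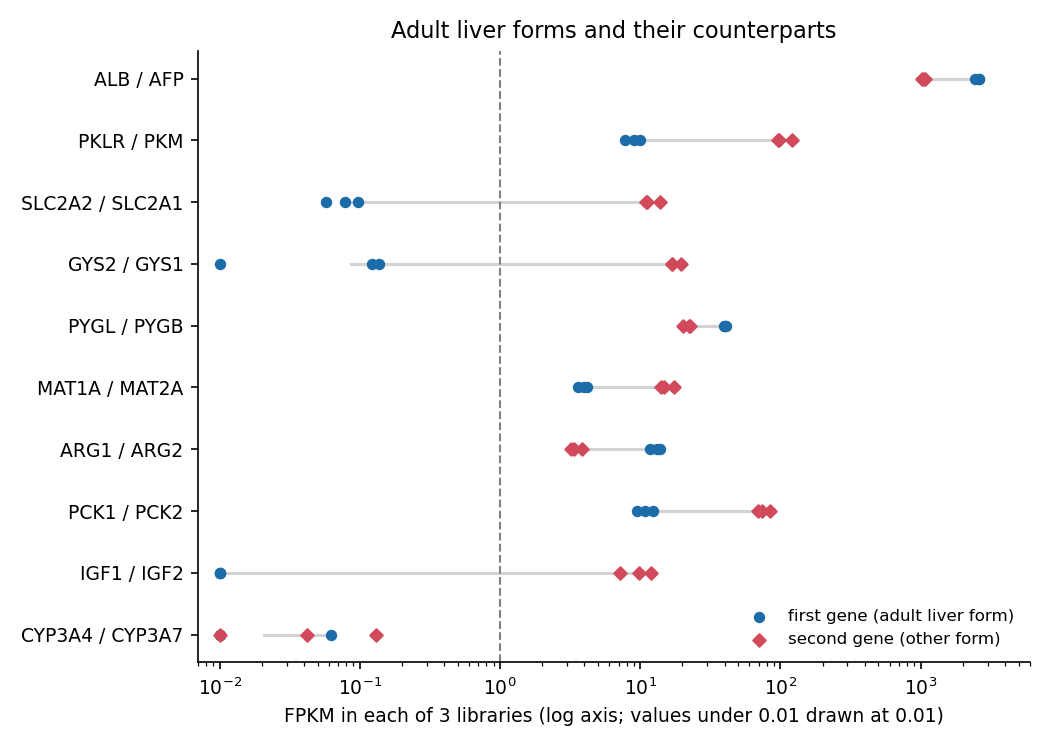
FPKM in each of the 3 control libraries of the adult liver form (circles) and of its counterpart (diamonds) in 10 of the 13 pairs, on a log axis, with a grey line between their means and values under 0.01 drawn at 0.01. The circles lie left of the diamonds in SLC2A2/SLC2A1, PKLR/PKM and PCK1/PCK2 and right of them in ALB/AFP, PYGL/PYGB and ARG1/ARG2.

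The 3 libraries were close to each other. Over 10967 genes with a mean count of at least 100, the median coefficient of variation (SD divided by the mean of the FPKM) was 7.67%, beside a median of 3.90% from counting alone, and the range from the 5th to the 95th percentile was 1.98% to 19.8%. The median fold between the libraries of a pair was 1.08 to 1.10. Of these genes, 29 differed at least 2-fold between the highest and the lowest library, which is 0.264%, and 408 differed at least 1.5-fold, which is 3.72%. Of the secreted protein genes, 92 of 138 had this count and 3 of them, or 3.26%, differed 2-fold, namely SAA1, C4A and C4B. With any single library left out the count of 2-fold genes was 13 without library 1, 8 without library 2 and 12 without library 3. For any gene the highest over the lowest of fewer libraries cannot exceed that of all 3. The rule therefore favors a count below 29, and nothing is read from the fall. Among the 408 genes, library 2 was the farthest from the mean in 246, or 60.3%, library 1 in 101 and library 3 in 61. The same share was not computed over all 10967 genes, so it cannot be read as particular to the 408.

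Of the short list of 29 genes, 14 were pseudogenes or had a listed close copy. The share of such genes among all 10967 was not computed, so whether this number is particular to the short list cannot be said. SMN1, the survival motor neuron gene, was at 16.1, 7.19 and 4.13 FPKM, while its copy SMN2 stayed at 2.19, 2.72 and 2.37 FPKM. Copies were added as counts divided by the size factors of the libraries, since FPKM of genes of unequal length do not add. The summed counts of SMN1 and SMN2 were 971, 525 and 343, so together they still differed 2.83-fold. GPR89B was at 1.44, 0.688 and 2.84 FPKM and differed 4.13-fold, but together with its copy GPR89A only 1.41-fold. The pseudogene LSM12P1 was at 27.9, 8.58 and 27.8 FPKM, which is a 3.25-fold difference, but its counts summed with those of LSM12 were 779, 789 and 790.5. U2AF1L5 was 3.90 times as high in library 3 as the mean of the others, and EIF3C 2.65 times. Together with their copies these genes still differed 2.685-fold and 2.42-fold. C4A and C4B, which code for nearly identical forms of complement C4, were both highest in library 3, with 237 and 179 counts, so their sum differed 2.25-fold. STAG3L1, TCEA1P2, HERC2P9 and LRRC37A6P were lowest in library 1, at 0.295 to 0.473 times the mean of the others. The counts of TCEA1P2 summed with those of TCEA1 were 966, 801 and 870, so together they differed 1.21-fold and were highest in library 1. RPL7AP6 was lowest in library 3, but together with RPL7A it differed 1.06-fold.

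The rest of the short list was led by genes without a listed copy. In library 1, FLJ46906, DLL4 (a Notch ligand) and TNFRSF14 were 1.91, 1.87 and 1.67 times the mean of the others. CBS, which starts the conversion of homocysteine to cysteine, has a listed copy and was at 13.2, 9.21 and 6.23 FPKM. Its fold was 2.11 alone and 2.10 as counts summed with its copy. In library 2, DSCC1, which loads the replication clamp, was at 1.51, 3.60 and 1.77 FPKM, and UHRF1, which maintains DNA methylation through replication, was at 2.96, 5.49 and 2.67 FPKM. PLA1A and SAA1 were lowest in library 2, at 0.413 and 0.428 times the mean of the others. 

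Library 2 stood apart in cell division genes. All 20 of the list were highest in library 2, where 41.1% of all 10967 genes were, and 8 of the 20 differed at least 1.5-fold. PCNA, the replication clamp, was at 61.3, 117 and 60.5 FPKM. The MCM helicase genes were also highest in library 2, with MCM5 at 4.84, 9.26 and 4.71 FPKM and MCM7 at 47.9, 80.0 and 47.0 FPKM. RRM2, which supplies deoxynucleotides, was at 6.04, 9.71 and 5.21 FPKM. MKI67, a marker of dividing cells, was at 16.5, 26.9 and 23.2 FPKM, TOP2A, a topoisomerase, at 53.8, 68.4 and 59.3 FPKM and PLK1, a kinase of mitosis, at 20.4, 21.8 and 18.2 FPKM. The median deviation from the mean of the 3 libraries was 0.29 on the log2 scale in library 2, beside 0.02 over all genes, and -0.18 and -0.14 in libraries 1 and 3. All 10 heat shock genes with a mean count of at least 100 were also highest in library 2, with a median deviation of 0.21. HSP90AA1, a cytosolic chaperone, was at 83.8, 136 and 86.8 FPKM and HSPA8 at 24.9, 41.4 and 24.9 FPKM. The inducible HSPA1A was at 0.707, 0.765 and 0.884 FPKM and its near-identical copy HSPA1B at 2.575, 1.844 and 2.264 FPKM. Both were under that mean count, and neither was highest in library 2.

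The genes of the acute phase list went the other way. All 4 of the 8 that had a mean count of at least 100 were lowest in library 2, where 30.1% of all genes were. SAA1, which rises in inflammation, was at 54.7, 22.3 and 49.4 FPKM and LBP, which binds bacterial lipopolysaccharide, at 54.7, 32.4 and 49.1 FPKM. SAA2 was at 12.3, 8.65 and 13.5 FPKM and the antimicrobial peptide gene LEAP2 at 17.5, 14.1 and 17.6 FPKM. SAA1 and SAA2 are close copies, and their summed counts over the size factors were 1223, 637 and 1194. Of 20 complement genes at that count 17 were lowest in library 2, with a median deviation of -0.17, and of 20 coagulation genes 14, with -0.07. Acute phase proteins that were grouped by another role did not all follow. In library 2, FGA, FGB, FGG, SERPINA1, C3, HP, ORM1, ORM2 and CP deviated by -0.11 to -0.02, and HPX by 0.21. The counts for cell division and acute phase genes, 20 and 4, were the same under each of 3 other scalings of the libraries. These scalings were nearly alike, with TMM factors of 1.000, 0.997 and 1.003, so the counts had little room to change. Library 2 was also the shallowest by 14638727 counts, and the part of depth in these differences was not tested.

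**Figure D5:**
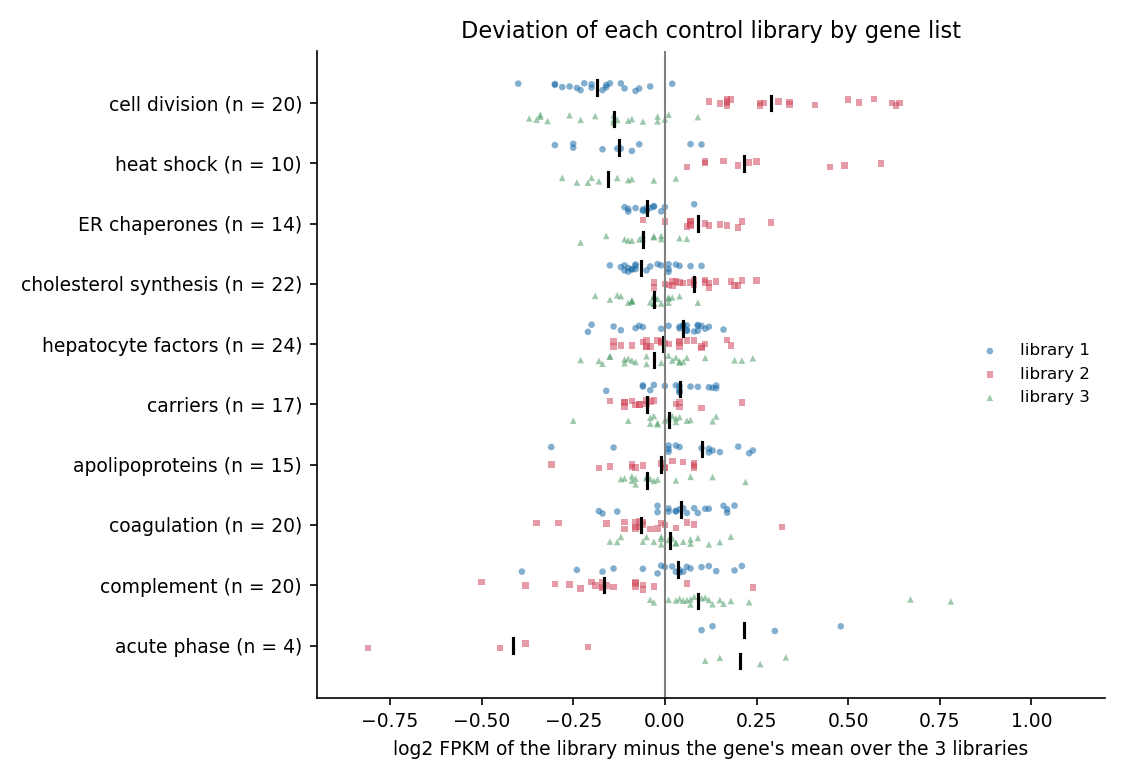
Deviation of each control library from the mean of the 3 on the log2 FPKM scale, by gene list. Each point is a gene with a mean count of at least 100 and the black bars are medians. Library 2 lies above 0 for all cell division and heat shock genes and below 0 for all 4 acute phase genes, while the hepatocyte factors scatter around 0.

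Libraries 1 and 3 differed along gene length and base composition. Genes were divided by length into 5 equal parts. In the part with the shortest genes, up to 2982 bases, the median deviation was 0.05, 0.00 and -0.05 on the log2 scale in libraries 1 to 3. In the part with the longest, from 8451 bases, it was -0.06, 0.02 and 0.04. In the part with the most GC, over 57.8%, the median deviations were 0.06, 0.03 and -0.09. APOB, with 14828 bases, had its lowest level in library 1, on the side of the long genes, and the part of length in its values was not tested. MT2A and MT1G, metallothioneins that bind zinc and copper, were highest in library 1, at 43.9, 33.1 and 30.7 FPKM and at 12.1, 6.64 and 9.44 FPKM.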

How the data were processed

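Poly(A) RNA of 9 Huh-7 libraries was sequenced in paired reads, and the 3 control libraries were analysed here. The members and gene lists were chosen with earlier results of these data known. Per the labels, the authors' reads were aligned with HISAT2 2.0.5 and counted on genes with featureCounts 1.5.0-p3, and the counts were deposited without normalization for 58735 genes. The labels name hg38 beside an older build, and the gene positions of the files were used as hg38. Read filters and the handling of multiply mapped reads and of reads in overlapping genes are not given in the sources used here. The authors deposited FPKM values beside the counts, and their values show that each library was scaled by its DESeq2 size factor, computed with the 6 knockout libraries included. The gene length in bases, also deposited by the authors, is the one used in their FPKM. Long annotated exons lower the FPKM of their gene, so that levels of different genes are approximate.

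Means and SDs were taken over the 3 libraries with numpy 2.4.6 and pandas 2.3.3 in Python 3.11.15. Genes were counted as expressed above a mean FPKM of 1. Differences among libraries were read as the highest over the lowest FPKM of a gene, for genes with a mean count of at least 100. No test was run, since a single group was described, and the libraries measure the spread between these cultures only. The fold and variation calculations were checked on simulated data. Of 532 list symbols 531 were found, 4 by another name. Exons shared between genes, on either strand, and GC content were taken from GENCODE release 44, in which 58207 of the 58735 genes were found, and promoter sequences from RefSeq on GRCh38.p14. Alternatives used other FPKM thresholds, TPM recomputed from the counts, TMM (edgeR 4.0.16) and DESeq2 1.42.0 size factors in R 4.3.3, other minimum counts, a pseudocount of 0.1, and each library left out. Genes were named by rule: the 20 highest, APOB and MTTP, members of the lists and pairs, and for each library up to 5 genes above and 5 below the others among those that differed 2-fold. FN1, RPL9P9, the long noncoding RNAs and the order by counts were chosen after their values were seen, and near-identical copies were added as counts over the size factors of the deposited FPKM, also chosen after seeing the data. Some members of the lists and pairs enter the counts and medians but are not reported here by name. Depth was 14638727 to 17865495 counts per library, so a gene at 0 in a library may have been present at up to 0.168 to 0.205 CPM, which covers counting error only.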

Additional observations from a re-analysis of the deposited data

How the results depend on the processing

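No paired analysis was possible because a single group of libraries is described and no groups are compared. Of the 7 summary values, the numbers of expressed genes and of hepatocyte function genes at or under an FPKM of 1 changed with the threshold. The fetal and tumor genes above an FPKM of 1 and the median coefficient of variation changed less under the alternatives run. The expressed genes numbered 12692, and between 10523 above an FPKM of 2 and 17021 above a TPM of 1 under the others. A TPM of 1 is a laxer threshold here, since the FPKM of a library summed to a mean of 272129 and not to 1000000. The function genes at or under 1 numbered 32 to 55, the fetal and tumor genes above it 45 to 51, and the median coefficient of variation was 5.72% to 8.92%. The share of the 20 most abundant genes was 22.7% of the summed FPKM, 9.73% without the mitochondrial genome and 10.6% of the raw counts, with 22.1% to 23.2% when a library was left out. The share of secreted plasma proteins was 4.47%, and 5.57% without the mitochondrial genome. The number of genes differing 2-fold was 29, and 414 at a mean count of at least 20, 6263 with no minimum and 0.1 added, 408 at a fold of 1.5, and 8 to 13 when a library was left out. Leaving a library out cannot raise the fold of a gene, so the last values are low by rule. Among protein-coding genes without a listed copy it was 13, a restriction chosen after seeing the data. The log2 ratio of CYP3A4 to CYP3A7 was -0.33 with 0.1 added and ran from -0.85 to 0.10 when a library was left out, on at most 9 counts. Depth limits the genes at 0 and those under 20 counts, whose values are wide.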

Other observations

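Genes of cholesterol synthesis and its control were all expressed, 22 of 22, with a median of 49.2 FPKM. DHCR7, which acts in the last step, was at 184 ± 1.98 FPKM. The cells had been kept overnight without serum, and no library with serum was measured. Of a list of 16 genes that holds the stress factor ATF4 and its targets, 15 were expressed. TRIB3 was at 267 ± 16.2 FPKM, PSAT1, which makes serine, at 243 ± 16.1 FPKM and ATF4 itself at 202 ± 17.4 FPKM, while ASNS, asparagine synthetase, was at 4.50 ± 0.397 FPKM and FGF21 at 0.921 ± 0.154 FPKM. All 14 chaperones and factors of the endoplasmic reticulum were expressed, with a median of 107 FPKM and CALR highest at 366 ± 34.4 FPKM. Of 16 immediate early genes 11 were expressed, with JUN at 108 ± 6.38 FPKM but FOS at 2.07 ± 0.197 and EGR1 at 0.754 ± 0.143 FPKM.

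The long noncoding RNAs of highest level were DANCR at 78.1 FPKM and NORAD at 68.7 FPKM. MIR122HG, the host transcript of the liver microRNA miR-122, was at 3.30, 2.85 and 3.14 FPKM. Pseudogenes held 3.52% ± 0.126 of the summed FPKM (SD, n = 3), and the 84 genes of cytosolic ribosomal proteins 4.93% ± 0.283. Among protein-coding genes with at least 90% of their exonic bases shared with another gene, 72.3% of 491 had 0 counts in all 3 libraries, compared with 24.3% of 10921 genes that share none.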
